A study of Mus musculus with 2 samples.

Results

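The Rab genes described here are 56 of the 21631 protein-coding genes on chromosomes 1 to 19 and X. They were taken by symbol, as Rab followed by digits and at most 1 letter, which matched 59 genes. Rab27a, Rab27b and Rab8b were left out. All ATAC-seq peaks that touched a Rab gene interval or lay within 10 kb of it were compared between a wild-type and a Dnmt3a knockout library. Open chromatin had been mapped with the Tn5 transposase, which inserts sequencing adapters into accessible DNA, in mast cells grown from mouse bone marrow. The wild-type library came from littermates of mice with a deletion of Dnmt3a (labelled DNMT3A-KO), which encodes a de novo DNA methyltransferase. The mice were females, aged 3 weeks by one label and 3 to 4 weeks by another, and both cultures had grown for 4 weeks with interleukin 3, the survival factor of these cells, with no further treatment. Over 95% of the cells stained for Kit and the IgE receptor, per the labels. No source used here gives the allele, the driver of any recombinase or the number of mice behind each culture. There was 1 library per genotype, so no difference below could be set against a spread between animals, and none was tested.

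Rab proteins are small GTPases that mark the membranes of the secretory and endocytic pathways. Exchange factors load them with GTP, which lets them bind effectors that move, tether or fuse vesicles, and GTPase activating proteins end this state. Lipid tails added by geranylgeranyl transferase anchor them in membranes, and escort proteins and dissociation inhibitors carry them between membranes. Mast cells store histamine and proteases in secretory lysosomes, and Rab proteins act in the formation, fusion and release of these granules.

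Each library had its own peak list, of 17170 peaks for the wild type and 19684 for the knockout, with a median summit pileup of 9 fragments in both. The labels state a depth of 10 M reads for each, and the lists themselves hold no total read count. Peaks of both lists that shared at least 1 bp were merged into 23364 regions, of which 55.1% were shared, 28.0% were found in the knockout list alone and 16.9% in the wild-type list alone. The knockout list was the longer, so knockout-only regions outnumbered wild-type-only ones genome-wide. Dnmt3a itself carried 6 wild-type and 5 knockout peaks, and a strong wild-type peak inside the gene (chr12:3897094-3897359, −log10 q 21.8) had no knockout partner. The labels do not say which part was deleted. Of 12 mast cell marker genes 11 (91.7%) had a peak within 10 kb in each list, Hdc in the knockout list alone and Fcer1a in the wild-type list alone. Over all protein-coding genes the shares were 52.3% (wild type) and 55.5% (knockout). A peak lay within 1 kb of the start of 11 of the 12 markers for the wild type and of 7 for the knockout. Over all genes these shares were 33.5% and 35.7%, and the part of the marker difference in the results below was not tested. Of 29 genes listed here as markers of other blood cells, 17 (58.6%) had a wild-type and 19 (65.5%) a knockout peak within 10 kb. S100a8, Csf1r, Pax5 and Tcf7 had one in the knockout list alone and Mcpt8 and Prss34 in the wild-type list alone. A start peak was found at 1 of the 29, the megakaryocyte gene Itga2b, in both lists. Whether any peak at these 29 genes came from cells other than mast cells was not tested.

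Most Rab genes carried open chromatin in both libraries. Within 10 kb of the 56 genes lay 83 wild-type and 89 knockout peaks, which formed 99 regions, and no region belonged to more than 1 Rab gene. Of the Rab genes, 48 (85.7%) had a wild-type peak, against 52.3% of all protein-coding genes, and 50 (89.3%) had a knockout peak, against 55.5%. A peak in both lists was found for 47 Rab genes. Rab21, Rab3b and Rab42 had a peak in the knockout list alone and Rab23 in the wild-type list alone. Rab15, Rab3c, Rab39b, Rab7b and Rab9b had no peak in either list. Without regions that also lay within 10 kb of another gene, 26 of the 56 Rab genes (46.4%) had a peak in each list. Over all genes the shares were 25.9% (wild type) and 28.2% (knockout). The median length was 22.6 kb for Rab genes (quartiles 12.1 and 34.0 kb) and 17.3 kb for all genes (5.84 and 44.9 kb), and the part of length in these shares was not tested.

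By class, 68 of the 99 regions (68.7%) were shared, against 56.7% over all regions of protein-coding genes. Knockout-only regions numbered 20 (20.2%, against 27.1%) and wild-type-only regions 11 (11.1%, against 16.2%). Of the 31 unshared regions 64.5% were knockout-only (exact binomial 95% interval 45.4 to 80.8%, counting error only), against 62.6% over all genes. The balance of the unshared regions at Rab genes thus lay close to that over all genes, within a wide interval. At least 1 knockout-only region was found at 17 of the 56 Rab genes and at 24.2% of all genes. At least 1 wild-type-only region was found at 10 of the 56 and at 16.4% of all genes. The other 28 of the 51 Rab genes with a region had shared regions and no other.

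**Figure D1:**
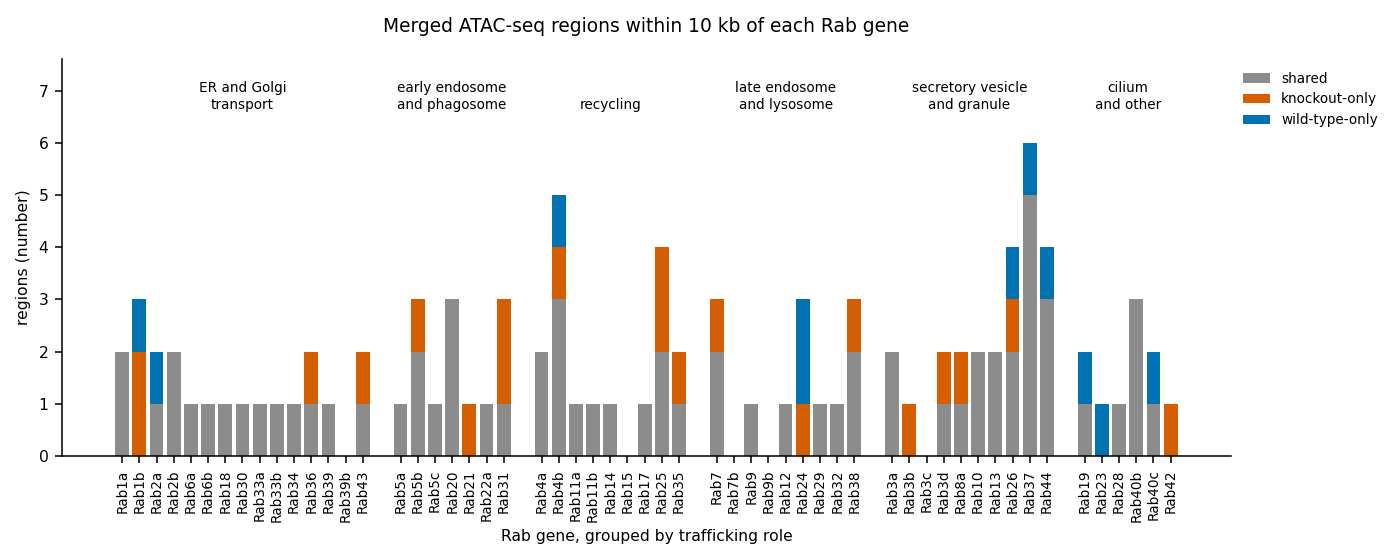
Number of merged ATAC-seq regions (vertical axis) touching each of the 56 Rab genes or lying within 10 kb, grouped by trafficking role along the horizontal axis. Grey, orange and blue parts of a bar mark 68 shared regions, 20 of the knockout list and 11 of the wild-type list; Rab37 had the most (6) and 5 genes had none.

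The unshared regions were narrow and weak, with median widths of 114 bp (knockout-only) and 115 bp (wild-type-only) against 254 bp for shared regions. Knockout-only peaks at Rab genes had a median −log10 q of 6.92 (range 4.92 to 14.5) and a median summit pileup of 7.5 fragments, and wild-type-only peaks 6.77 (3.67 to 9.32) and 7. The shared regions had medians of 14.4 and 15 fragments in the knockout list, and of 12.8 and 13 in the wild-type list. Unshared peaks were weak over all genes too, with median −log10 q values of 6.48 (knockout-only) and 6.08 (wild-type-only). The −log10 q values are the authors' and the pileups were recovered from their fold and −log10 p. Both rank peaks within their own list and do not measure a change between lists. A −log10 q of at least 10 was reached by 2 of 20 knockout-only regions, at Rab3d and Rab25, and by 0 of 11 wild-type-only regions. In each class, 4 regions had a peak of the other list within 1 kb. A missing partner at this depth shows only that no peak was called there.

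Start peaks and flanking peaks were about equally common, with 40 of the 99 regions at a start, 20 elsewhere in the gene and 39 in the flanks. These are 40.4%, 20.2% and 39.4%, against 37.4%, 31.8% and 30.8% over all genes, with a region counted once per gene. Starts came from the RefSeq promoter table, which lists 46 of the 56 genes; for the other 10 (Rab18, Rab26, Rab2a, Rab30, Rab36, Rab37, Rab38, Rab44, Rab4a and Rab7b) either gene end was taken as the start. Within 1 kb of a start lay a wild-type peak for 36 of the 56 Rab genes, a higher share than the 33.5% of all genes. A knockout peak lay there for 34 of the 56, also a higher share than the 35.7% of all genes. For 33 genes a start peak was present in both lists. Of the 56 genes, Rab23, Rab24 and Rab44 had one in the wild-type list alone, against 3.56% of all genes. Rab1b had one in the knockout list alone, against 5.78%. The remaining 19 had none. Of the genes with a start peak, 29 had a listed start and 8, Rab44 among them, counted through either gene end. At Rab26 and Rab37 the peaks present in both lists lay outside the gene, within 1 kb of the starts of Traf7 and Slc9a3r1. At the other end of Rab26 only the knockout list had a peak. Without peaks that also lay within 10 kb of another gene, 20 Rab genes (35.7%) had a wild-type start peak, against 15.6% of all genes. A knockout start peak was then left at 18 (32.1%), against 16.6%. Where a start is listed, 25 of 27 shared start regions had the summit of their wild-type peak within 250 bp of it. The median −log10 q of the strongest start peak was 13.5 in the wild-type list (10.8 over all genes with a start peak) and 18.6 in the knockout list (11.9).

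**Figure D2:**
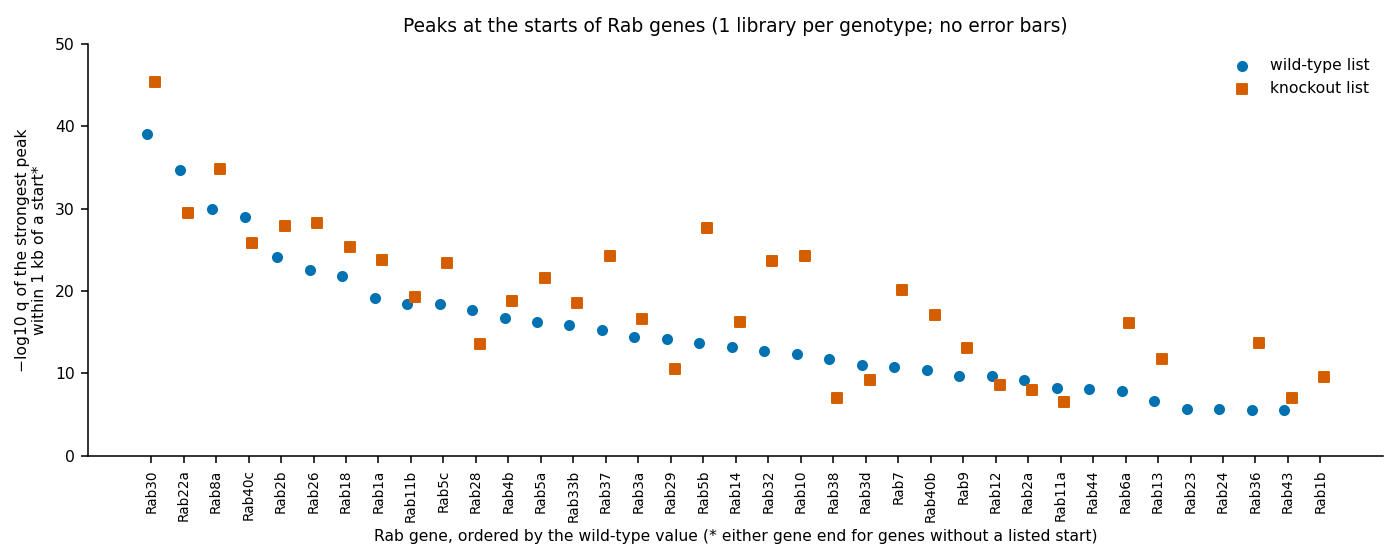
The −log10 q (vertical axis) of the strongest peak within 1 kb of a start, for the 37 Rab genes with one, in the wild-type (blue circles) and knockout (orange squares) lists; each point is 1 peak of 1 library. Rab30 leads both lists (39.0 and 45.4), and Rab23, Rab24, Rab44 and Rab1b have a point from 1 list only.

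To show the DNA under these calls, the promoters of the 3 listed genes with a start peak in 1 list and of the 3 with the strongest wild-type start peaks among listed genes are given below, from RefSeq (GRCm38.p6, the build mm10 names), 5′ to 3′ on the strand of the gene, from 250 bases before the start to 50 after it. Capitals mark the bases covered by a peak of either list.
Rab23, chr1:33719646-33719945, plus strand: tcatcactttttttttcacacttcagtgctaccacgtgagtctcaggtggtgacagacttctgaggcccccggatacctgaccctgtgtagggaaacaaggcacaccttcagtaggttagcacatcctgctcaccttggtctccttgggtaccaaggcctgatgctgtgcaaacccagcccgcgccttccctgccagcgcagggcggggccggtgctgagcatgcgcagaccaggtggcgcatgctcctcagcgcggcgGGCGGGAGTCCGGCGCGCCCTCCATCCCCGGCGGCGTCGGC
Rab24, chr13:55321931-55322230, minus strand: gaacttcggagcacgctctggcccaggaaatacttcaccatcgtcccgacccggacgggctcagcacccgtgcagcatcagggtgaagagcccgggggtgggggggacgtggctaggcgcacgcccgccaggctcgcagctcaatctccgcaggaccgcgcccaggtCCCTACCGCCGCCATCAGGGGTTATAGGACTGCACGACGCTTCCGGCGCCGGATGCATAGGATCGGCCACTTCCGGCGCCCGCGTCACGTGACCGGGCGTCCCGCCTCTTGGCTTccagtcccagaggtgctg
Rab1b, chr19:5106947-5107246, minus strand: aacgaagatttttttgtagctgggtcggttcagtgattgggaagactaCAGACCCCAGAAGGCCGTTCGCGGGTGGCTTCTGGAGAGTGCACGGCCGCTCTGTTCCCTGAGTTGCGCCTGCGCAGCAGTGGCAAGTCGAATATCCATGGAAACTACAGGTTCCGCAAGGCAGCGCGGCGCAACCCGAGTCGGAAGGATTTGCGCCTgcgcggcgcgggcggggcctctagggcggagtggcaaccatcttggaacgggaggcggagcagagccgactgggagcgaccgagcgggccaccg
Rab22a, chr2:173659595-173659894, plus strand: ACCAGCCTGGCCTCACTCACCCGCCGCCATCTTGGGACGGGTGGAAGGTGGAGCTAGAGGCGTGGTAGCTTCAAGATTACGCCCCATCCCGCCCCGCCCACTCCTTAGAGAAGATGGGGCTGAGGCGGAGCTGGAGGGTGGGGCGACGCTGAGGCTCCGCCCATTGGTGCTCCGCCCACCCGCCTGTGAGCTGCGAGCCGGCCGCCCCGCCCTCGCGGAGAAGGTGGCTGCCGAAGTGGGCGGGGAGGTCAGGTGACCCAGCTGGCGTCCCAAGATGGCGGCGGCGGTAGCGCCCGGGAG
Rab8a, chr8:72160950-72161249, plus strand: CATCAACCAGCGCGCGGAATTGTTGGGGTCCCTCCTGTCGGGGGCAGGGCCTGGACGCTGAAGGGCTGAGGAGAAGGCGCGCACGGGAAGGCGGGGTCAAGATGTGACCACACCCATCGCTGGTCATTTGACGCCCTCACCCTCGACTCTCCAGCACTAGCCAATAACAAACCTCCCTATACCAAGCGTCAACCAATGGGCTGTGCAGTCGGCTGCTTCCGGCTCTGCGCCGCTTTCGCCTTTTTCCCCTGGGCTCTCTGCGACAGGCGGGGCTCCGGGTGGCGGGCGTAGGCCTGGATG
Rab40c, chr17:25919665-25919964, minus strand: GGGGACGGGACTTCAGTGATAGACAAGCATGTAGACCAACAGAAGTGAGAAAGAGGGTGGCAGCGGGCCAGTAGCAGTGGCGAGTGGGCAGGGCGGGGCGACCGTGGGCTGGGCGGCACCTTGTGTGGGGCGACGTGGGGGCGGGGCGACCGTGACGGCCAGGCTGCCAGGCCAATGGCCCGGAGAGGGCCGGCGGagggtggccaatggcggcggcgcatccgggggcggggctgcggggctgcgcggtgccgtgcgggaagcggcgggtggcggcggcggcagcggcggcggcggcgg
In Rab23 the wild-type peak covered only the last 41 of the 300 bases, and in Rab24 a stretch of 115 bases across the start. The knockout peak of Rab1b covered 158 bases, and ended before the start. Peaks covered all 300 bases of the Rab22a and Rab8a windows and the first 196 of Rab40c. These windows held 20 (Rab23), 32 (Rab24), 30 (Rab1b), 27 (Rab22a), 23 (Rab8a) and 36 (Rab40c) CpG dinucleotides, the sites that DNA methyltransferases act on. In Rab24 the capitals held CACGTG, the palindromic E-box, at base 253, and CGGAAG, the core of ETS factor motifs, on the opposite strand at bases 207 and 237. In Rab1b they held CGGAAG once, at base 190.

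Rab promoters with a peak held more CpG than those without on the median, with overlapping ranges, and so did promoters of all genes. The 27 Rab windows touched by a peak in both lists had a median of 25 CpG (range 9 to 43), and the 25 windows touched by none a median of 11 (3 to 45). Over all genes the medians were 23 and 6. The 2 windows with a wild-type peak alone (Rab23 and Rab24) held 20 and 32, and the 3 with a knockout peak alone (Rab1b and 2 overlapping starts of Rab43) 30, 18 and 20. CpG-rich windows without a peak in either list were found at Rab6b (42 CpG), Rab35 (43), 1 start of Rab15 (38) and the other start of Rab23 (45). Methylation was not measured in these libraries.

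**Figure D3:**
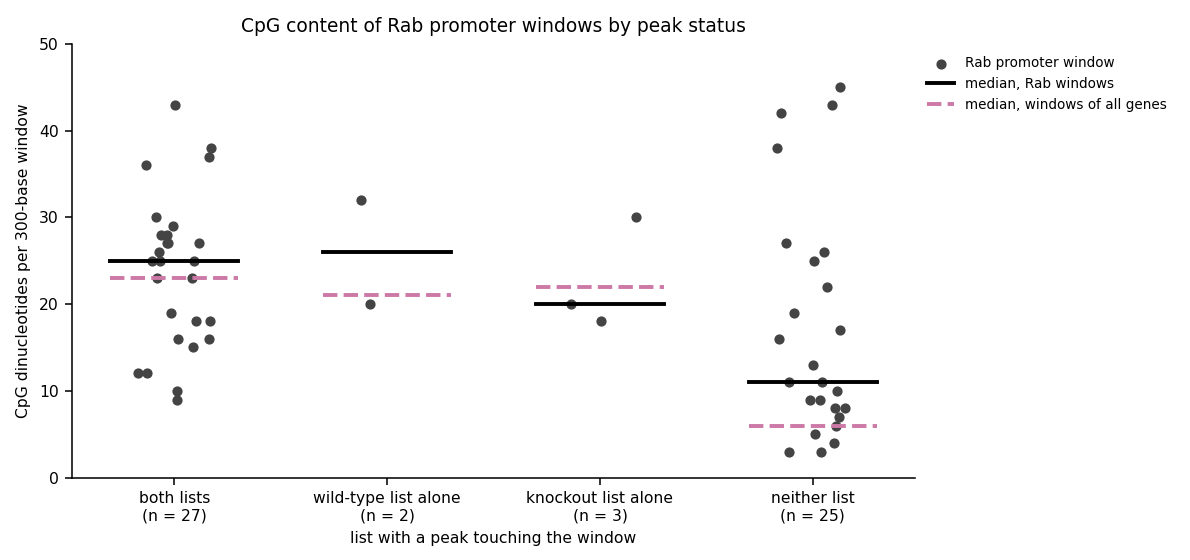
CpG dinucleotides in each 300-base promoter window of the Rab genes (points), by the list that had a peak touching the window; solid lines are medians of the Rab windows and dashed lines those of all protein-coding genes. The medians are 25 with peaks in both lists and 11 with none, and 4 windows without a peak hold 38 or more.

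Short motifs were counted in the 57 Rab windows and in 21045 windows of all genes, on both strands and with overlaps between motifs allowed; windows of 1 gene can overlap. GGGCGG, the GC-box bound by SP factors, was found in 68.4% of Rab windows and 46.7% of all, CGGAAG in 29.8% and 21.3%, and CCAAT in 42.1% and 38.5%. Among windows with a peak in both lists, GGGCGG was in 20 of 27 Rab windows and 75% of all, and among windows with none in 15 of 25 and 33.6%. The GATA motifs AGATAA and TGATAA, of the factor family that includes the mast cell regulator GATA2, were in 3.51% and 7.02% of Rab windows, against 9.68% and 7.51%. Shares of the E-box CACGTG were 8.77% and 7.91%, of CATGTG 10.5% and 11.6%, of the RUNX motif TGTGGT 15.8% and 14.7%, and of AGGAAG, a second ETS core, 36.8% and 34.1%. The AP-1 motif TGANTCA was in 5.26% and 7.04%, and ACGTCA, part of the cyclic AMP response element, in 12.3% and 8.58%. A match is a string of letters and not a bound site.

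Rab genes of secretory vesicles and granules had the most regions, 25 at 10 genes, with 18 shared, 4 knockout-only and 3 wild-type-only. Rab37, which acts in granule release of mast cells, had 6 regions, more than any other Rab gene. The 5 shared regions had −log10 q values from 4.69 to 15.8 in the wild-type and from 7.08 to 24.3 in the knockout list, and 4 of them lay inside the gene. The fifth, and strongest in the knockout list, lay 234 bp beyond the upper end of the gene and over the start of the neighbouring Slc9a3r1. The wild-type-only region (chr11:115119672-115119771, −log10 q 6.77) lay 42 bp from the nearest knockout peak, where Rab37 and Cd300lf overlap. That knockout peak belongs to a shared region, so the wild-type-only call stood beside a site open in both libraries.

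Rab44, a large Rab protein of leukocytes with a role in mast cell granule release, had 3 shared regions and 1 wild-type-only region. A region 2208 bp below the gene (chr17:29111382-29111920) had a −log10 q of 27.8 (wild type) and 24.1 (knockout), and one inside it (chr17:29117054-29117459) 25 and 20.3. Their summit pileups of 37 and 35 fragments were among the highest wild-type values at any Rab gene. Between them, over the lower gene end, lay the wild-type-only peak (chr17:29114064-29114181, −log10 q 8.06). Its pileup of 22 fragments was the highest of the 11 wild-type-only peaks, over a local background of 3.42, and its fold was 5.2, against a class median of 5.93. The knockout list had no peak there and its nearest one was 2144 bp away.

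The other genes of this group had fewer regions. Rab8a, which carries vesicles from the Golgi to the plasma membrane, had a start peak with a −log10 q of 30 (wild type) and 34.8 (knockout), and a knockout-only region inside the gene (6.12). Rab3a and Rab3d, of regulated exocytosis, both had a shared start region, while Rab3b had only a knockout-only region 8855 bp away (5.96) and Rab3c, at 227 kb the longest Rab gene, had none. The knockout-only region of Rab3d (chr9:21927408-21927629) had a −log10 q of 14.5, the highest of the 20, but it lay 9209 bp from the gene and over the starts of Ccdc159 and Tmem205. Rab26 had 2 shared regions, a knockout-only region 18 bp beyond its upper end (7.49) and a wild-type-only region 9315 bp below it (3.67). Its strongest region (22.6 and 28.3) lay over the start of Traf7. Rab10 and Rab13 had 2 shared regions each and no other.

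**Figure D4:**
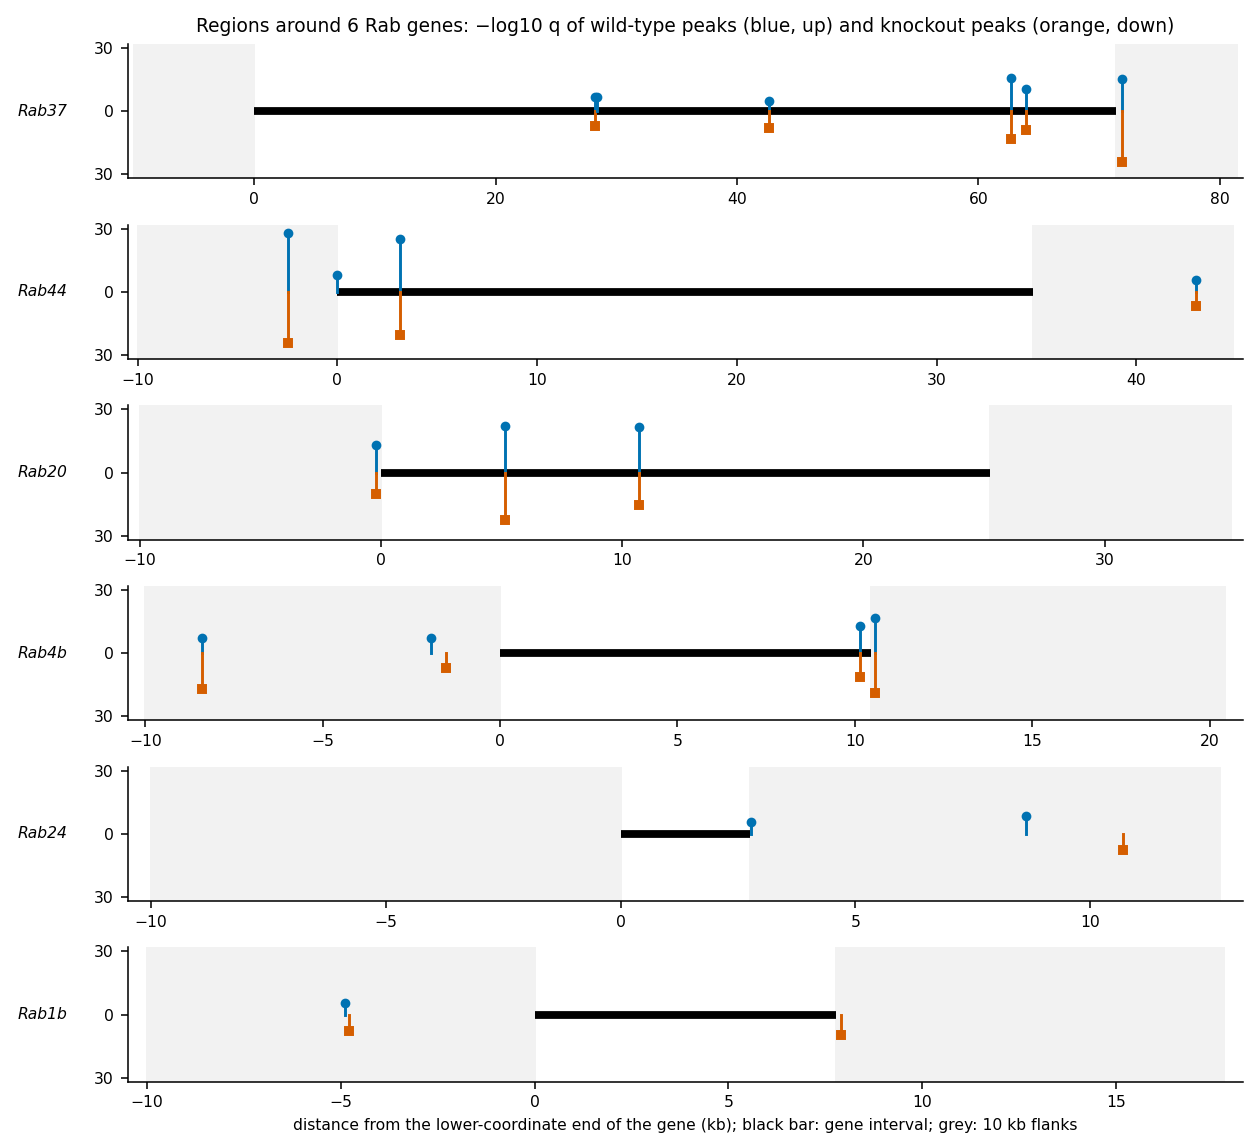
Regions around 6 Rab genes, chosen after their values were seen: distance of the middle of each region from the lower-coordinate gene end (horizontal axis, kb) and −log10 q in the wild-type (blue, upward) and knockout (orange, downward) lists. Rab37, Rab44 and Rab20 are dominated by peaks present in both lists, whereas Rab24 and Rab1b show only unpaired peaks.

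Rab genes of transport between endoplasmic reticulum and Golgi had 21 regions at 15 genes, 15 shared, 4 knockout-only and 2 wild-type-only. Rab30, a Golgi Rab, had 1 region, at a gene end (chr7:92741387-92741709), with the highest −log10 q of any Rab gene in both lists, 39.0 and 45.4, and pileups of 34 and 40 fragments. Rab18, which acts at lipid droplets and the endoplasmic reticulum, had 21.8 and 25.3 at its single region. Rab2b had 2 shared regions, at its start (24.1 and 27.9), which it shares with Tox4, and 3753 bp away over the start of Chd8 (16.3 and 34.0). These strong sites were thus present in both genotypes.

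Rab1b and its close relative Rab1a, both required for transport from the endoplasmic reticulum, differed in their calls. Rab1a had a shared start region (19.2 and 23.8) and a second shared region inside Cep68 (20.1 and 13.4). Rab1b had no shared region at all. The knockout list had a peak beside its start (chr19:5107041-5107198, −log10 q 9.53, pileup 9), also within 1 kb of the start of Klc2, where the wild-type list had none. The other knockout-only region of Rab1b and its wild-type-only region lay inside Cnih2, 6 bp apart (5094373 to 5094485 and 5094268 to 5094367), so that both libraries had a peak at nearly the same place.

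The remaining unshared regions of this group were at Rab2a, Rab36 and Rab43. Rab2a and Rab36 each had a shared start region as well. Rab2a held a wild-type-only region inside the gene (8.49), Rab36 a knockout-only region 5587 bp beyond it (6.08) within 1 kb of the start of Bcr, and Rab43 a knockout-only region over a start (7) that lay 102 bp from the wild-type peak of its shared start region. Rab6a, Rab33b, Rab6b, Rab33a, Rab34 and Rab39 had 1 shared region each, at the start in Rab6a and Rab33b, inside the gene in Rab6b and Rab39, and in the flanks in Rab33a and Rab34, over the starts of Aifm1 and Rpl23a.

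Early endosome and phagosome genes had 13 regions at 7 genes, 9 shared, 4 knockout-only and 0 wild-type-only. The interval of this knockout-only share of the unshared (39.8 to 100%) included the 62.6% over all genes. Rab5a, Rab5b and Rab5c, which drive early endosome fusion, all had a start region in both lists, with −log10 q values of 16.2, 13.7 and 18.4 in the wild-type and 21.6, 27.6 and 23.4 in the knockout list. That of Rab5b is shared with Pmel, and its knockout-only region 8894 bp away (4.92) lay near the start of Cdk2. Rab22a had a single region, at its start, of 34.7 and 29.5. Rab20, of phagosome maturation, had 3 shared regions and none at its start, the strongest of 22.2 and 22.8 inside the gene. Rab21, which sorts integrins, had only a knockout-only region inside the gene (6.83). Rab31 had a shared region inside the gene (13.6 and 8.17) and 2 knockout-only regions, inside it (5.49) and 9950 bp away over Ppp4r1 (5.12).

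Recycling Rab genes had 17 regions at 9 genes, 12 shared, 4 knockout-only and 1 wild-type-only. Rab4b, of rapid recycling, had 5 regions. Both of its start regions were shared (16.7 and 18.8; 12.7 and 11.2), and so was one 8298 bp away in Egln2 (7.05 and 17.1). Its wild-type-only (7.04) and knockout-only (7.06) regions lay within 1 kb of the start of Egln2 272 bp apart. Rab4a had 2 shared regions in its flanks (15.6 and 26.4; 6.74 and 12.2) and none at a gene end.

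Rab25, a relative of Rab11 best known from epithelia, had 2 shared and 2 knockout-only regions. The knockout-only ones had −log10 q values of 10.7 (inside Mex3a, 5251 bp away) and 9.23 (inside Ubqln4, 5282 bp away), and the latter lay 477 bp from a wild-type peak. The start of Rab25 itself had no peak. Rab35, of recycling from the plasma membrane, had a strong shared region in Bicdl1, 5780 bp beyond the gene (26.6 and 34.5), and a knockout-only region 3603 bp away (5.62). Rab11a, Rab11b and Rab14 had a shared start region each and no other, and Rab17 a shared region 5378 bp away.

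Late endosome and lysosome genes had 13 regions at 9 genes, 8 shared, 3 knockout-only and 2 wild-type-only. Rab7, which governs late endosome traffic, had a shared start region (10.8 and 20.1), a shared region inside the gene (8.01 and 9.18) and a knockout-only region 6089 bp away (7.49). Rab24, linked to autophagy, had no shared region. Its wild-type-only start peak (chr13:55321949-55322063, −log10 q 5.63, pileup 5) is shared with the start of Prelid1, and the nearest knockout peak was 7792 bp away. A second wild-type-only region (8.25) and a knockout-only region (7.62) lay 5798 and 7875 bp from the gene, inside Mxd3. Rab38, of lysosome-related organelles, had 2 shared regions (12 and 19.1; 11.7 and 6.98) and a knockout-only one between them (6.45). Rab9, Rab12, Rab29 and Rab32 had a shared start region each and no other.

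The 6 genes of the cilium and other roles had 10 regions, 6 shared, 1 knockout-only and 3 wild-type-only. The interval of this knockout-only share of the unshared (0.631 to 80.6%) included the 62.6% over all genes. Rab40c, of the Rab proteins that join ubiquitin ligases, had a wide shared start region (29.0 and 25.8) and a wild-type-only region inside the gene (5.41). Rab40b had 3 shared regions and Rab28 1, at its start (17.7 and 13.6). Rab23, a regulator of Hedgehog signalling, had only its wild-type start peak (chr1:33719905-33720018, −log10 q 5.71, pileup 6), and the nearest knockout peak was 49406 bp away. Rab19 had a shared region 1090 bp below the gene (11.9 and 22.5) and a wild-type-only region between this and the gene (9.32). This was the highest value of that class, but the knockout peak of the shared region lay 307 bp away. Rab42 had only a knockout-only region 5213 bp away (6.54).

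Knockout-only regions at Rab genes lay mostly in the flanks. Of 20, 14 (70%, exact binomial 95% interval 45.7 to 88.1%) were neither inside the gene nor within 1 kb of its start, against 31.6% of knockout-only regions over all genes, each counted once per gene. For wild-type-only regions it was 5 of 11 against 31.4%, and for shared regions 20 of 68 against 30.2%. Of the knockout-only regions 15 of 20 also lay in the window of another protein-coding gene (45.1% over all genes), and 8 lay within 1 kb of the start of another gene (19.1% over all genes). In all, 61 of the 99 Rab regions lay within 10 kb of another gene as well (50.7% over all genes), and a peak does not say which gene it acts on. Over gene intervals without flanks 45 regions were shared, 4 were knockout-only and 6 wild-type-only, so that 40% of the unshared were knockout-only (interval 12.2 to 73.8%), against 62.7% over all genes. In windows that belong to no other gene the numbers were 5 and 4 (55.6%, interval 21.2 to 86.3%, against 63.1%). Whether the neighbouring genes set this pattern was not tested.

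**Figure D5:**
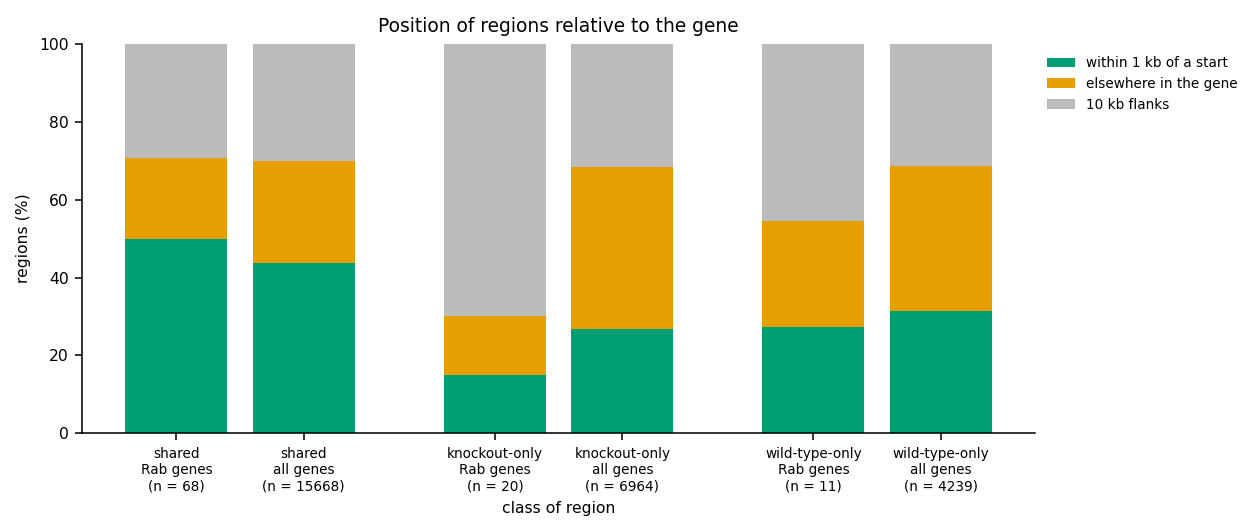
Share of regions (vertical axis, %) that lay within 1 kb of a start, elsewhere in the gene or in the 10 kb flanks, by class, for Rab genes and for all protein-coding genes. The flank share of knockout-only regions is 70% at Rab genes (14 of 20) and 31.6% over all genes, and those of shared regions are 29.4% and 30.2%.

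The 10 kb limit itself decided single calls. The regions just inside it were those of Rab31 and Rab4a at 9950 bp, of Rab26 at 9315 bp and of Rab3d at 9209 bp. Just outside were a knockout-only region of Rab31 at 10173 bp (−log10 q 5.25), regions of the wild-type list alone at Rab37 (10225 bp, 3.71) and Rab34 (10332 bp, 6.08), and a shared region of Rab1b at 10626 bp (12.3 and 18.1).

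Genes with the same Rab number encode close relatives, and 27 of the 56 fell into 12 such sets. In Rab7, Rab9 and Rab39 the lettered b form had no peak in either list (Rab7b, Rab9b and Rab39b), while Rab7, Rab9 and Rab39 had 3, 1 and 1 regions. Rab6a and Rab33b had a start region and Rab6b and Rab33a did not. In Rab5, Rab11, Rab2 and Rab40 every member had a start region in both lists.

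The regulators and effectors of the Rab cycle were counted in the same way, beside 52.3% of all genes with a wild-type and 55.5% with a knockout peak, and 56.7% of all regions shared, 27.1% knockout-only and 16.2% wild-type-only. Of 36 exchange factor genes 30 (83.3%) had a peak in each list, with 50 shared regions, 16 knockout-only and 17 wild-type-only (48.5% of the unshared knockout-only, interval 30.8 to 66.5%). Dennd2c had 3 wild-type-only and 0 knockout-only regions, and Dennd1c 2 and 0. The 48.5% of this list crossed 50% in several of the alternatives given at the end. Of 34 GTPase activating protein genes 32 (94.1%) had a wild-type and 30 (88.2%) a knockout peak, with 60 shared regions, 27 knockout-only and 17 wild-type-only (61.4%). Here the largest differences went the other way, with 4 knockout-only and 0 wild-type-only regions for Tbc1d2b, 4 and 1 for Tbc1d1 and 5 and 2 for Tbc1d22a.

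All 8 escort and prenylation genes had a peak in each list, against 52.3% and 55.5% of all genes, with 9 shared regions, 1 knockout-only and 3 wild-type-only. Chm, which encodes a Rab escort protein, had 2 wild-type-only regions and 1 knockout-only region, and Rabac1 1 and 0. Of 49 effector genes 36 (73.5%) had a wild-type and 37 (75.5%) a knockout peak, with 58 shared regions, 20 knockout-only and 12 wild-type-only (62.5%, interval 43.7 to 78.9%). No effector gene had a difference of more than 1 between both unshared classes, and 18 tied at 1 in either direction. The 3 of these with most regions, Rab11fip4, Inpp5b and Acap2, had 1 knockout-only region each and 5, 5 and 4 shared ones. The interval of the exchange factors included the 62.6% of all genes, and a difference between these lists was not tested.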

How the data were processed

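ATAC-seq libraries of 1 wild-type and 1 Dnmt3a knockout culture were read as single ends of 50 bp, per the labels' protocols. The tools were Trimmomatic, Bowtie2 and MACS2, and the builds mm10 and GRCm38, per the submitters' processing notes. No source used here gives versions, settings or a Tn5 shift, which would move peak edges by a few bases. The authors deposited 1 peak list per library, giving a score, fold enrichment, −log10 p-value, −log10 q-value and summit offset per peak. The fold was read with 1 added to both terms: pileup plus 1, divided by background plus 1. Whole-number summit pileups were recovered from the authors' fold and −log10 p for 100% of peaks (tolerance 0.001).

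Peaks sharing at least 1 bp were merged in Python 3.11.15 (NumPy 2.4.6, pandas 2.3.3, SciPy 1.17.1). Genes and promoters came from RefSeq tables of GRCm38.p6, without exons or introns. Coordinates are 1-based. The members, roles, gene lists and motifs were chosen with earlier results of these data known. Rab41 was listed but is not a gene of the table. By rule, the text names every member with an unshared region or no peak, the 10 members strongest in each list and with most regions, and up to 3 genes per Rab cycle list with the largest difference, ties going to more regions. The other members are named to account for all. For 1 exchange factor gene chosen in this way, values are not reported here. Shares have exact binomial 95% intervals, which cover counting error only. Steps were tested on simulated data. Alternatives were other peak limits, overlaps, merging distances, gene windows and start windows, no chromosome X, and no regions of other genes.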

Additional observations from a re-analysis of the deposited data

How the results depend on the processing

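No paired analysis was possible because there was a single library on each side. The share of unshared Rab regions that were knockout-only was between 55.6% and 67.7% in 9 of 10 alternatives, and 40% (4 against 6) over gene intervals without flanks, which removes most knockout-only regions. Without flanks the shared, knockout-only and wild-type-only counts were 45, 4 and 6, and leaving out regions in the window of another gene 29, 5 and 4. Flanks of 25 kb gave 42 knockout-only and 20 wild-type-only regions, and a reciprocal overlap of 50% gave 21 wild-type-only. Leaving out regions of other genes left 26 Rab genes with a peak in each list, and 20 wild-type and 18 knockout starts. These changes follow from the size of the window or the stricter overlap. For exchange factors the share turned from 48.5% to 51.6% when peaks of either list under a −log10 q of 5 were dropped, 52.2% with the reciprocal overlap, 53.3% by summits within 200 bp, 53.6% with peaks within 150 bp merged, 61.9% without flanks, 51% with 25 kb flanks and 58.8% without regions of other genes, while lists cut to the same number of peaks gave 36.7% (11 against 19), and the cause was not tested. Lists so cut took the Rab genes from 64.5% (20 against 11) to 58.1% (18 against 13). They also took GTPase activating proteins from 61.4% to 53.5% and effectors from 62.5% to 50%. The 62.6% over all genes comes from the full lists. For escort genes the knockout-only share went from 25% (1 of 4) to 0% without chromosome X (0 of 1). Start counts cannot change with the overlap or merging rule. A start window of 2.5 kb gave 37 Rab genes with a start peak in each list, against 36 (wild type) and 34 (knockout) with 1 kb. With 250 bp it was 35 and 33. Beside the stated reads, depth shows only in the pileups. Knockout-only peaks at Rab genes had a median of 7.5 fragments (range 5 to 13), and wild-type-only peaks 7 (4 to 22). The part of depth in these calls was not tested.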
